A study of Mus musculus with 7 samples.

Results

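Histone genes were followed in a translating ribosome affinity purification (TRAP) experiment on mouse hippocampus. The set comprised the protein-coding genes of the deposited count table whose GENCODE M21 symbol starts with Hist1h, Hist2h, Hist3h, Hist4h, H2af or H3f3, or is H1f0 or H1fx. The annotation names 80 such genes, 8 of which were not analysed here, so that 72 of the 39017 genes in the table were members. Of these, 59 lie in the histone gene clusters and 13 lie outside them. A summed raw count of at least 50 over all libraries was reached by 67 members, 57 clustered and 10 outside the clusters, and all 67 passed the filter on low counts and were tested among 19563 genes. H2afb1, H2afb2, H2afb3, Hist1h1t and Hist1h2aa stayed below that count.

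Histones package DNA: pairs of H2A, H2B, H3 and H4 form the nucleosome core, and the linker histone H1 binds where DNA enters and leaves it. Replication-dependent histone genes sit in clusters, are transcribed mainly in S phase, and give mRNAs that are normally cut after a conserved stem-loop instead of being polyadenylated. The stem-loop-binding protein SLBP holds that hairpin and takes part in processing, export, translation and decay of the message. Replacement variants such as H3.3, H2A.Z and H1.0 are made from genes outside the clusters, give polyadenylated mRNAs, and supply histones to cells that no longer divide, neurons among them.

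Mice that carried Cre recombinase driven by Gad2, the gene of a GABA-synthesising enzyme, were crossed with mice that carry the ribosomal protein L10 fused to EGFP. Ribosomes are thereby tagged in Gad2-expressing cells, and RNA was taken either bound to the tagged ribosomes (3 libraries, GAD_ctrl) or unbound (4 libraries, of which replicates 1 and 2 are titled UBS and replicates 3 and 4 UBGS). All libraries share this cross, 2 hippocampi were pooled for each purification, and age, sex and strain background were not given in the labels. The labels do not tie a bound library to an unbound one, and do not say whether libraries came from separate animals, so p-values reflect how far these particular libraries vary, which may be technical. Library totals ran from 38690380 to 51953811 counts. In bulk RNA, fewer cells of a type and less RNA per cell cannot be told apart.

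All 14 GABAergic markers tested were higher in bound RNA (median log2 difference 3.73) and all 9 excitatory markers were lower (median -4.11). All 12 microglial markers were also higher, with a summed level of 348, 808 and 285 CPM (counts scaled to the size of each library) in bound replicates 1 to 3 and 91.5 to 139 CPM in unbound libraries. Bound replicate 2 was the highest for each of the 12. Of 23 tested genes of dividing cells, 3 were higher (13%, against 31.0% of all genes tested) and 5 lower (21.7%, against 30.7%). Mki67 fell from 4.87 ± 0.704 CPM (SD, n = 4) to 0.799 ± 0.936 CPM (n = 3) and Top2a from 0.806 to 0.0475 CPM (edgeR adjusted p = 0.0134 and 0.000516), whereas Cdt1 and Gmnn rose (log2 2.08 and 2.03, edgeR adjusted p = 0.00766 and 0.000348). Pcna, the most abundant of the list, was at 23.6 CPM in unbound and 23.9 CPM in bound RNA. The part of microglial RNA in the histone values was not tested.

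The histone stem-loop, a hairpin with a 6-base-pair stem and a 4-base loop, is shown first because it is the signal at the 3′ end of replication-dependent histone mRNAs. Of 57 members with at least 16 annotated bases after a stop codon, 42 held an exact match to the consensus, against 5 of 20414 other protein-coding genes (0.0245%). The others of the 57 were searched and held no match. Among these, Hist2h3b has only 37 annotated bases after the stop codon. A 16-base stem-loop that begins at base 31, as in its near copy Hist2h3c2, would not fit there. Apart from the 57, another 15 members have fewer than 16 annotated bases after the stop codon, so a stem-loop could not be looked for in them. Where it was found, the stem-loop began 22 to 59 bases after the stop codon (median 32.5). In the forms below, read from GENCODE M21 transcripts, capitals mark the stem and lower case the loop.
Form in 23 genes, of types H1, H2A, H2B and H3: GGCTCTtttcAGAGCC
Form in 7 genes (Hist1h4c, Hist1h4d, Hist1h4f, Hist1h4h, Hist1h4m, Hist1h4n, Hist4h4): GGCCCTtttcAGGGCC
Form in 5 genes (Hist1h1t, Hist1h2bb, Hist1h2bk, Hist1h3c, Hist1h3e): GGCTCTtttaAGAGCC
Form in Hist1h4i and Hist2h4: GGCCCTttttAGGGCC
Form in Hist1h4b and Hist1h4j: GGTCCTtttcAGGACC
Form in Hist1h4a: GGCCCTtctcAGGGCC
Form in Hist2h2ac: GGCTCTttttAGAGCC
Form in H2afx: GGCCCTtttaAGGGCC
The stems of H4 genes and of H2afx differed from those of the other types. H2afx was the only member outside the clusters with a match.

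Many clustered genes are near copies of each other, so their reads could not always be assigned to a single gene. A set of 10 Hist1h2a genes (Hist1h2ab, Hist1h2ad, Hist1h2ae, Hist1h2af, Hist1h2ag, Hist1h2ah, Hist1h2ai, Hist1h2an, Hist1h2ao and Hist1h2ap) shared a coding stretch of 141 bases, given here because the largest differences between bound and unbound RNA lay in the genes that hold it. It is read from Hist1h2ag, at chr13:22042637-22042777 on the minus strand (mm10), and capitals mark the 68 bases that Hist1h2ak holds as well.
Shared Hist1h2a stretch: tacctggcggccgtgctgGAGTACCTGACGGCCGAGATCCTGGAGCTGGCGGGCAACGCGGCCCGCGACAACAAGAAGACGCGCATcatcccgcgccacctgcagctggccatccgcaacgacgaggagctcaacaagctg
Hist1h2ac and the unprocessed pseudogene Hist1h2aj held the whole stretch too. The longest run of it was 114 bases in Hist2h2aa1 and Hist2h2aa2, 111 bases in H2afx, and 11 bases in H2afz.

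Histone mRNAs were higher in bound than in unbound RNA for most members. In the comparison of bound with unbound RNA, edgeR's quasi-likelihood test with Benjamini-Hochberg adjustment over all genes called 59 of 67 members higher at an adjusted p under 0.05 (88.1%), where it called 31.0% of all genes tested higher. It called 1 member lower, Hist2h2be, where 30.7% of all genes were lower. The median log2 fold change was 1.52 over the members and -0.01 over all genes. The libraries of the 2 groups did not overlap for 58 members in the higher direction, against 31.7% of all genes. Clustered genes were higher in 49 of 57 cases (median 1.57) and genes outside the clusters in 10 of 10 (median 0.78). These counts include 10 Hist1h2a genes that passed the filter on low counts only through the bound libraries, so with them the counts are a description. Without the Hist1h2a genes, 47 of 55 members were higher (85.5%, median 1.35), 46 of them without overlap of the libraries. Among clustered genes without Hist1h2a, 37 of 45 were higher, with a median of 1.45.

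**Figure D1:**
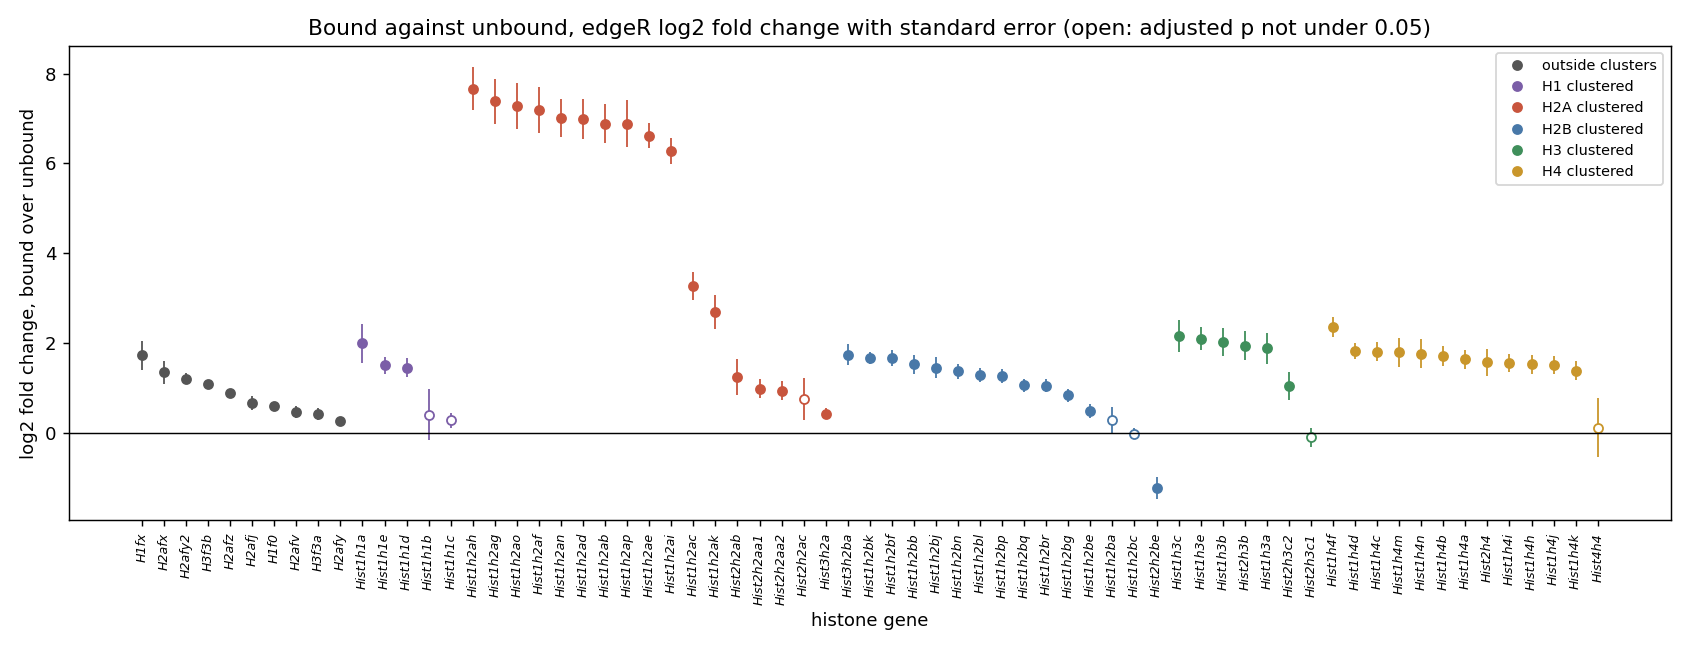
edgeR log2 fold change of bound over unbound (vertical axis) with its standard error for the 67 tested histone genes, grouped by type. Open circles mark the 7 genes whose adjusted p was not under 0.05, Hist2h2be is the single gene called lower, and 10 Hist1h2a genes stand between 6.27 and 7.66.

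The replacement variants outside the clusters are described first, since they carried most of the histone counts. Their summed level was 452 ± 8.38 CPM (SD, n = 4) in unbound and 760 ± 27.1 CPM (n = 3) in bound RNA, 1.68 times as much. The 59 clustered genes together gave 204 ± 13.1 CPM in unbound and 511 ± 38.5 CPM in bound RNA, 2.51 times as much, or 2.14 times without the Hist1h2a genes. A read counted for several copies adds to such a sum more than once.

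**Figure D2:**
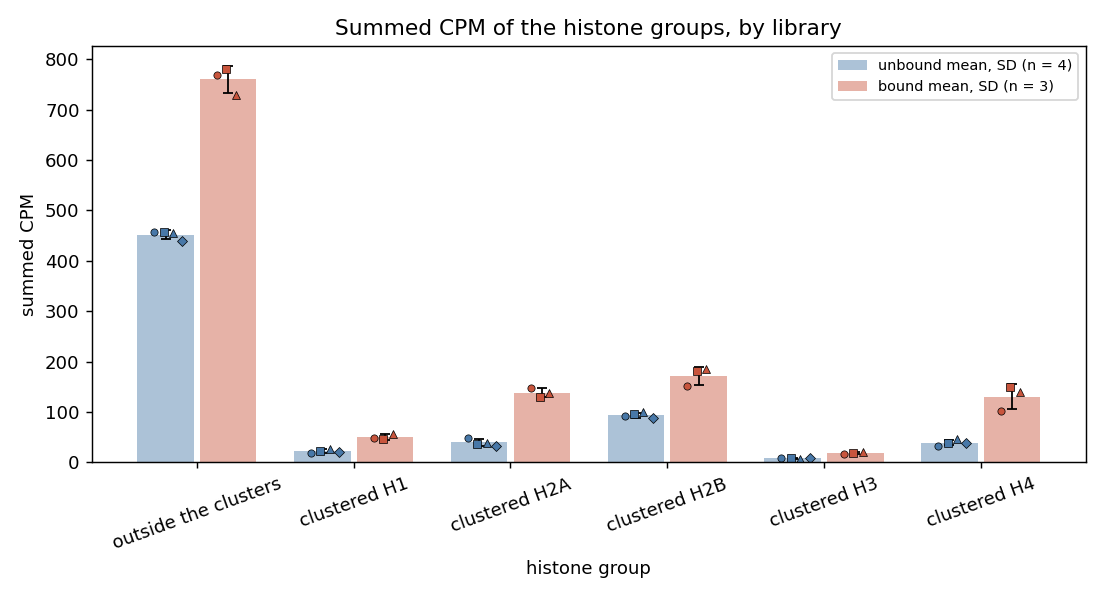
Summed CPM of the histone groups, with bars for the mean, error bars for the SD (4 unbound, 3 bound libraries) and a point for each library. Every bound library lay above every unbound one in each group, and the genes outside the clusters gave the tallest bars, with means of 452 and 760 CPM.

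H2afz encodes H2A.Z, a variant placed at promoters and regulatory sites, and lies at chr3:137864487-137866922. It was counted at 141, 130.5, 126 and 129 CPM in unbound libraries 1 to 4 and at 244, 252 and 234 CPM in bound libraries 1 to 3. No bound library came near an unbound one. The difference was 1.85-fold (log2 0.89 ± 0.06 SE, edgeR adjusted p = 5.96e-07). Per kilobase of exon it was the most abundant member in both groups, at 74.0 CPM per kb unbound and 137 CPM per kb bound. Its paralogue H2afv, which encodes the second H2A.Z protein, moved less. H2afv stood at 13.1, 12.6, 10.6 and 10.1 CPM in unbound and 14.7, 16.2 and 17.2 CPM in bound libraries, without overlap (log2 0.46 ± 0.13, edgeR adjusted p = 0.00921). Over the 16 alternative settings (edgeR in 15, DESeq2 in 1) its adjusted p ran from 8.15e-05 to 0.122, and H2afv did not pass with UBS libraries alone as unbound (log2 0.32) or with a trend on exon length removed (0.32).

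H3f3a and H3f3b encode the same H3.3 protein, the replacement H3 deposited outside S phase. H3f3b (chr11:116021912-116027962) was at 59.1, 62.5, 59.7 and 57.5 CPM in unbound and at 126, 131 and 125 CPM in bound libraries. The spread within each group was small beside the 2.14-fold difference (log2 1.10 ± 0.06, edgeR adjusted p = 1.26e-07). H3f3a (chr1:180800832-180813943) was at 105, 103, 114 and 121 CPM in unbound and at 164, 169 and 109.8 CPM in bound libraries. Bound replicate 3 lay inside the unbound range, so H3f3a was the one variant outside the clusters whose groups overlapped. It was called higher in all libraries (log2 0.42 ± 0.13, edgeR adjusted p = 0.0173). The adjusted p of H3f3a ran from 0.00016 to 0.144 over the 16 alternatives. The call was lost without bound replicate 1 (adjusted p = 0.0743), bound replicate 2 (0.0775) or unbound replicate 2 (0.0510), and with UBGS libraries alone as unbound (0.144). Gm17275, a noncoding gene that overlaps H3f3a, had the same low value in bound replicate 3, at 74.1 CPM against 117 and 116 CPM in the other bound libraries.

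H2afx encodes H2A.X, whose phosphorylation marks DNA double-strand breaks, and its gene (chr9:44334694-44336077) gives both a stem-loop and a longer annotated transcript. It was at 22.8, 25.5, 21.9 and 9.46 CPM in unbound and 53.8, 46.4 and 52.2 CPM in bound libraries. Unbound replicate 4 was the lowest by far, and every bound library exceeded every unbound one (log2 1.35 ± 0.26, edgeR adjusted p = 0.00089). H2afj (chr6:136808244-136810074), an H2A variant of mammals, rose from 11.8 to 15.1 CPM in unbound to 17.7 to 25.4 CPM in bound libraries (log2 0.67 ± 0.15, edgeR adjusted p = 0.00241).

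The macroH2A genes, whose products carry a large additional domain and are enriched on silent chromatin, differed in size of change. H2afy2, for macroH2A2 (chr10:61738665-61784147), was at 7.34, 8.34, 6.79 and 7.26 CPM in unbound and 19.0, 16 and 16.6 CPM in bound libraries. Its difference was 2.31-fold (log2 1.21 ± 0.13, edgeR adjusted p = 9.13e-06). H2afy, for macroH2A1 (chr13:56073619-56136361), was at 47.6, 45.8, 43.1 and 41.0 CPM in unbound and 53.4, 55.4 and 51.9 CPM in bound libraries. The groups did not overlap, but the difference was the smallest of any called member (log2 0.27 ± 0.08, edgeR adjusted p = 0.0127), and among the 16 alternatives, with adjusted p from 2.77e-05 to 0.149, it was not called with UBS libraries alone. Whether the 2 macroH2A genes differed from each other was not tested.

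The linker histones outside the clusters also rose. H1f0 encodes H1.0, the linker histone that accumulates in differentiated cells (chr15:79028450-79030504). It was at 48.5, 55.3, 56.5 and 52.3 CPM in unbound and 73.2, 73.8 and 93.4 CPM in bound libraries (log2 0.59 ± 0.10, edgeR adjusted p = 0.000371). H1fx, for H1.10 (chr6:87980421-87981637), was the lowest of the variants, at 0.587 to 1.24 CPM in unbound and 2.36 to 3.49 CPM in bound libraries. Its log2 difference of 1.73 ± 0.33 (edgeR adjusted p = 0.00084) was the largest among the variants, and an antisense gene at about 124 CPM in unbound RNA, Gm5577, overlaps it.

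**Figure D3:**
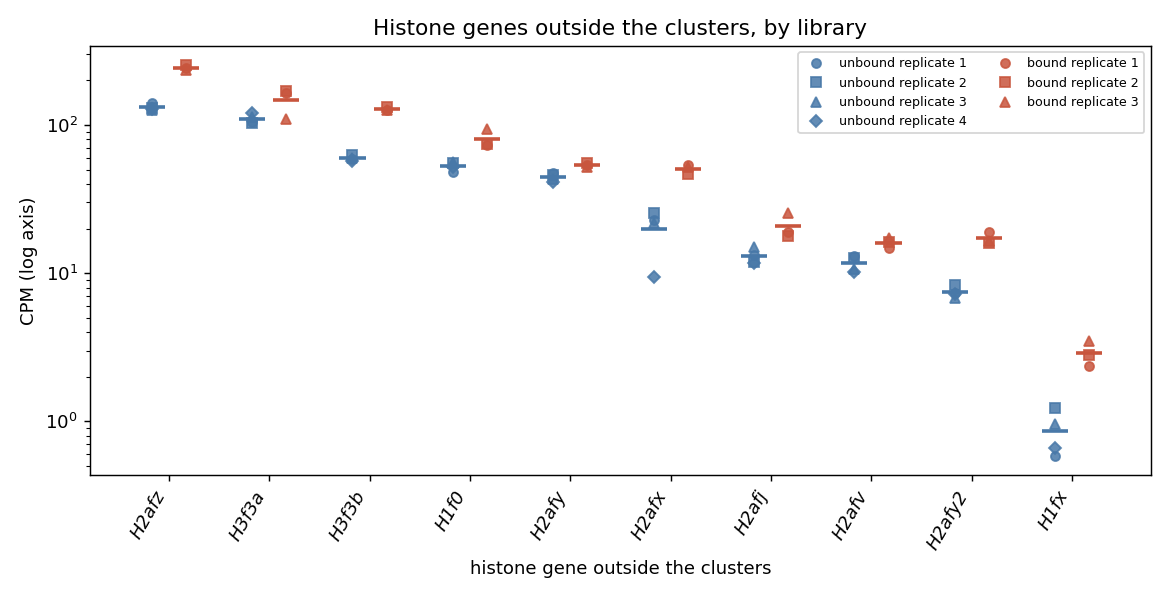
CPM (log axis) of the 10 histone genes outside the clusters, with a point for each library and a line for each group mean. Bound points lie above all unbound points for 9 genes, and H3f3a is the exception through bound replicate 3 at 109.8 CPM.

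Clustered linker histone genes have largely separate sequences and could be followed gene by gene. Of 5 tested, 3 were higher and 2 did not pass, with a median log2 of 1.45. Hist1h1e, the most abundant in bound RNA (chr13:23620629-23622558), was at 6.75, 11.3, 13.5 and 11.2 CPM in unbound and 29.7, 28.1 and 33.4 CPM in bound libraries, 2.84 times as much (log2 1.50 ± 0.19, edgeR adjusted p = 4.03e-05). Its exons overlap those annotated for Hist1h2be. Hist1h1d rose from 2.00 to 3.52 CPM in unbound to 6.61 to 8.53 CPM in bound libraries (log2 1.45 ± 0.22, edgeR adjusted p = 0.000147). Hist1h1a was low, at 12 to 26 raw counts in unbound and 57 to 116 in bound libraries, and rose too (log2 1.99 ± 0.43, edgeR adjusted p = 0.00209).

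Hist1h1c (chr13:23738808-23740367), for the linker subtype H1.2, did not follow them. It was at 9.96, 9.09, 8.99 and 6.49 CPM in unbound and 9.74, 9.71 and 12 CPM in bound libraries, and the groups overlapped (log2 0.28 ± 0.17, edgeR adjusted p = 0.167). Hist1h1b was near the detection limit, with 6 to 17 raw counts in unbound libraries (log2 0.41 ± 0.56, edgeR adjusted p = 0.551). All 5 tested clustered H1 genes were highest in bound replicate 3, which was the highest bound library for 7259 of all 19563 genes tested.

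H4 genes encode one protein from many copies, and 12 of 13 were higher in bound RNA, by log2 1.39 to 2.36 (median of the 13, 1.64). Of all genes tested, 31.0% were higher. Counts of Hist1h4h and Hist1h4j differed by at most 2.48% in any library. For Hist1h4m and Hist1h4n this was 4.35%, and for Hist1h4a and Hist1h4b 9.09%. The 13 H4 genes are therefore not independent measurements. Their summed level was 33.3, 38.7, 46.8 and 38.5 CPM in unbound and 103, 149.7 and 139 CPM in bound libraries. Hist1h4d (chr13:23581598-23582735) stood out in level. It was at 10.7, 17.4, 18.9 and 15.9 CPM in unbound and 46.2, 61.3 and 59.8 CPM in bound libraries, 3.55 times as much (log2 1.83 ± 0.17, edgeR adjusted p = 4.80e-06). At 49.0 CPM per kb in bound RNA it was second only to H2afz among the members, and only 10.2% of its 50-base stretches occurred in another gene. No other H4 gene exceeded 12.9 CPM in any library.

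The largest H4 difference was that of Hist1h4f, at 1.56, 1.36, 1.97 and 1.56 CPM in unbound and 6.02, 9.49 and 9.25 CPM in bound libraries (log2 2.36 ± 0.23, edgeR adjusted p = 5.03e-06). Hist1h4i was at 2.76 to 4.56 CPM in unbound and 8.74 to 12.9 CPM in bound libraries (log2 1.55 ± 0.20, edgeR adjusted p = 5.31e-05), and Hist1h4c at 2.20 to 3.10 CPM and 6.55 to 10.5 CPM (log2 1.81 ± 0.21, edgeR adjusted p = 2.50e-05). Hist2h4, which shared only 1.01% of its 50-base stretches with other genes, rose from 1.36 to 2.53 CPM in unbound to 3.76 to 7.46 CPM in bound libraries (log2 1.57 ± 0.29, edgeR adjusted p = 0.000748). Hist4h4 (chr6:136801553-136804415) did not pass, with 3 to 12 raw counts in unbound and 6 to 21 in bound libraries (log2 0.12 ± 0.65, edgeR adjusted p = 0.889). Bound replicate 2 was the highest bound library for all 13 H4 genes, which share sequence, and bound replicate 1 the lowest for 12. Over all 19563 genes tested, these were 5831 and 6190 genes. Bound replicate 2 was also the one with the most microglial RNA, whose part here was not tested.

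H3 genes of the clusters were low, together 8.26 ± 0.582 CPM (SD, n = 4) in unbound and 19.1 ± 1.34 CPM (n = 3) in bound RNA. Of 7 tested, 6 were higher, by log2 1.04 to 2.15. Hist1h3e was at 1.32, 1.21, 0.916 and 0.741 CPM in unbound and 4.36, 4.99 and 4.13 CPM in bound libraries (log2 2.10 ± 0.26, edgeR adjusted p = 3.83e-05). Hist1h3c rose by a log2 of 2.15 ± 0.36 (edgeR adjusted p = 0.000348), from 13 to 17 raw counts in unbound to 79 to 115 in bound libraries.

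The replication-dependent genes Hist2h3c1 and Hist2h3c2 both carry the stem-loop of the 23-gene form. Hist2h3c1 overlapped between the groups, at 2.97, 3.85, 3.97 and 4.72 CPM unbound and 3.42, 3.62 and 3.85 CPM bound (log2 -0.10 ± 0.21, edgeR adjusted p = 0.708). Hist2h3c2 was at 0.939 to 1.64 CPM unbound and 1.97 to 3.20 CPM bound (log2 1.04 ± 0.31, edgeR adjusted p = 0.0133). The call of Hist2h3c2 was lost in 3 of 16 alternatives, among them without bound replicate 3 (adjusted p = 0.0565, range over the alternatives 0.00146 to 0.134). All 50-base stretches of Hist2h3c1 and 63.5% of those of Hist2h3c2 occur in other genes, so their values are not independent, and Gm20634 overlaps all of the annotated Hist2h3c1 exons.

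H2B genes included the single fall. Of 15 tested, 12 were higher (log2 0.49 to 1.74), 1 was lower and 2 did not pass (median log2 1.27). Hist2h2be (chr3:96221119-96223738), whose annotation gives a long 3′ UTR and no stem-loop match, was at 9.78, 15.2, 9.75 and 10.9 CPM in unbound and 5.48, 3.23 and 5.96 CPM in bound libraries. Every bound library lay below every unbound one (log2 -1.23 ± 0.24, edgeR adjusted p = 0.00102). None of its 50-base stretches occurs in another annotated gene. It was called lower under all 16 alternative settings, with adjusted p of at most 0.0131.

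Hist3h2ba (chr11:58948920-58949533) moved the other way, from 3.76, 6.80, 9.18 and 7.95 CPM in unbound to 20.6, 24.4 and 24.9 CPM in bound libraries (log2 1.74 ± 0.23, edgeR adjusted p = 6.94e-05). It was the largest rise among H2B genes and rested on 1099 to 1522 raw counts per bound library. Hist1h2bk was at 4.46 to 4.99 CPM unbound and 13.6 to 16.7 CPM bound (log2 1.67 ± 0.13, edgeR adjusted p = 1.27e-06). Hist1h2be was at 9.11 to 11.6 CPM unbound and 11.6 to 16.7 CPM bound (log2 0.49 ± 0.15, edgeR adjusted p = 0.0146), and was not called without bound replicate 3 or with UBGS libraries alone (adjusted p over the 16 alternatives 0.000153 to 0.0822). Hist1h2bc, the most abundant H2B gene in unbound RNA, was level, at 19.1, 18.2, 18.9 and 14.7 CPM unbound and 16.5, 18.1 and 17.9 CPM bound (log2 -0.02 ± 0.12, edgeR adjusted p = 0.897). Hist1h2ba, a testis-type H2B, did not pass (log2 0.29 ± 0.30, edgeR adjusted p = 0.427). Hist1h2bq and Hist1h2br had equal counts in all 4 unbound libraries and differed by at most 4 counts in the bound ones, and were in effect measured once.

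H2A genes gave the largest differences. Of 17 tested in the clusters, 16 were higher. A set of 10 among them had almost no counts in unbound libraries and passed the filter on low counts only through the bound ones, so that count is a description. In the Hist2 and Hist3 clusters, 4 of 5 H2A genes were higher, with a median log2 of 0.93. Hist3h2a (chr11:58954685-58956830), the most abundant, was at 25.5, 18.0, 20.8 and 21.7 CPM unbound and 30.1, 30.5 and 26.0 CPM bound, with only a small gap between the groups (log2 0.43 ± 0.12, edgeR adjusted p = 0.0118), and among the 16 alternatives (adjusted p 8.09e-05 to 0.0825) it was not called with UBS libraries alone. Hist2h2aa1 was at 9.28, 7.64, 7.07 and 4.35 CPM unbound and 14.2, 12.5 and 15.3 CPM bound (log2 0.98 ± 0.21, edgeR adjusted p = 0.00212). Its near copy Hist2h2aa2 had a log2 of 0.93 ± 0.21 (edgeR adjusted p = 0.00273), and all of its 50-base stretches occur in other genes. Hist2h2ab, at 0.370 to 1.15 CPM unbound and 1.74 to 2.54 CPM bound (log2 1.24 ± 0.39, edgeR adjusted p = 0.0177), was not called without bound replicate 3, with UBS libraries alone or with a length trend removed (adjusted p over the 16 alternatives 0.00267 to 0.106). Hist2h2ac did not pass (log2 0.75 ± 0.47, edgeR adjusted p = 0.190). In all 4 Hist2 H2A genes, which share sequence, unbound replicate 4 was the lowest library and bound replicate 3 the highest bound one. Over all 19563 genes tested, unbound replicate 4 was the lowest unbound library for 4050 and bound replicate 3 the highest bound one for 7259.

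The 10 Hist1h2a genes that share the 141-base stretch were nearly absent from unbound libraries, with 0 to 5 raw counts each, and had 220 to 503 raw counts in each bound library. Hist1h2ag (chr13:22042460-22042944) was at 0, 0.0467, 0.0939 and 0 CPM unbound and 7.29, 6.16 and 6.64 CPM bound (log2 7.39 ± 0.50, edgeR adjusted p = 3.41e-07). Hist1h2ah (chr13:22035164-22035568) was at 0, 0.0467, 0.0704 and 0 CPM unbound and 7.36, 6.21 and 6.92 CPM bound (log2 7.66 ± 0.48, edgeR adjusted p = 1.85e-07). Their log2 estimates ran from 6.27 to 7.66 and rest on so few unbound counts that their exact size depends on the fit. Differences of 6 or more were fitted for 75 of all genes tested, or 0.383%. The 10 genes hold the same stretch, so they are not 10 independent measurements. Hist1h2ac, with the same stretch and a long 3′ end of its own, had 13 to 35 raw counts unbound and 295 to 436 bound (log2 3.28 ± 0.31, edgeR adjusted p = 4.77e-06), and Hist1h2ak 8 to 16 and 71 to 142 (log2 2.68 ± 0.38, edgeR adjusted p = 9.50e-05). The pseudogene Hist1h2aj, no member, gave values like those of the 10 genes, with 1 to 8 raw counts in unbound libraries and 7.03 ± 0.699 CPM in bound RNA (log2 6.02).

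**Figure D4:**
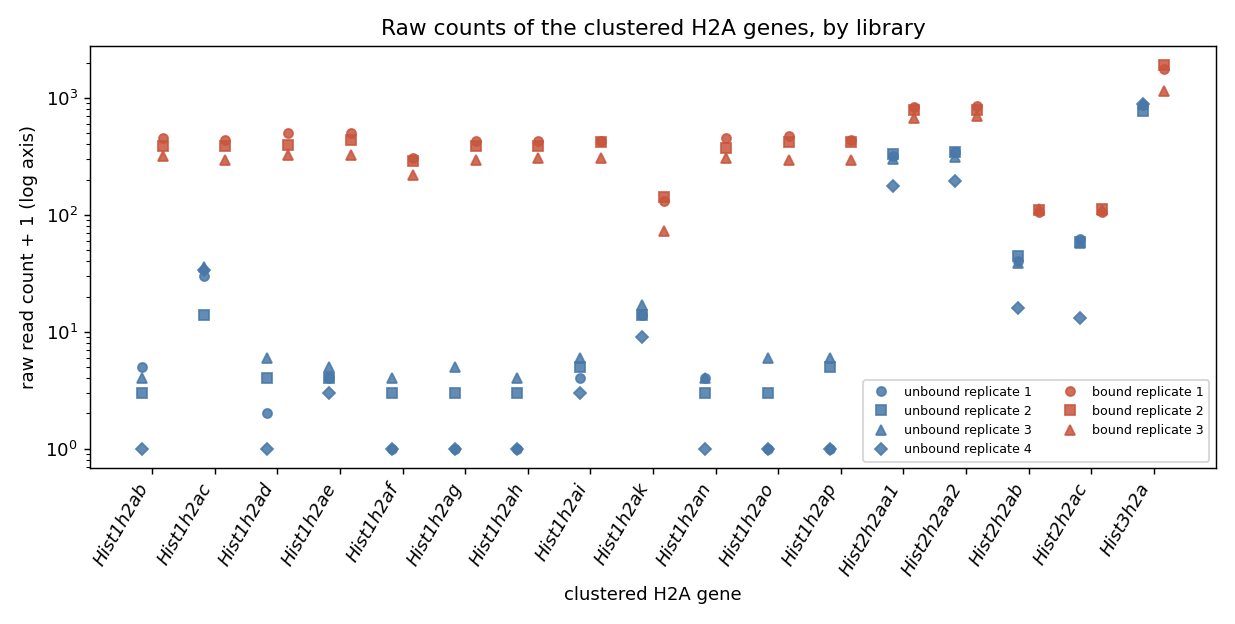
Raw read counts plus 1 (log axis) of the 17 tested clustered H2A genes in each library. The 10 genes with the shared stretch have 0 to 5 counts in unbound and 220 to 503 in bound libraries, whereas the Hist2 genes and Hist3h2a have counts in both.

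How often a gene's sequence recurs moved with the difference between bound and unbound RNA, in histone genes and elsewhere. For each gene, 1 in 4 of the 50-base stretches of its transcripts was looked up in all annotated transcripts. Among genes that are no histone members, the 10079 with no shared stretch had a median log2 of -0.06. The 529 with 10% or more of their stretches in over 10 genes had a median of 1.87, and 430 of them were higher and 13 lower. Genes whose median stretch occurred in 8.5 to 10 genes (n = 53) had a median log2 of 1.04, and those at 10.5 to 14 (n = 49) a median of 3.21, with 48 higher. Hist1h2ah and Hist1h2ai were in that last class, and so was Hist1h2bl, with a log2 of only 1.28. Aligners set a limit on the number of places a read may match, and the limit used here, in either kind of library, was not given in the sources used here. The part of read placement in the Hist1h2a difference was not tested.

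Members without such recurring sequence were mostly higher as well, with a smaller median difference. Of the 16 tested members with no stretch in over 10 genes, 12 were higher and 1 was lower, with a median log2 of 0.99. Of all genes tested, 31.0% were higher and 30.7% lower. H1f0, H1fx, H2afv, H2afy, H2afy2, H2afz and H3f3b, from outside the clusters, were all higher. Clustered genes were mixed: Hist1h1a, Hist1h1d, Hist1h1e, Hist2h4 and Hist3h2ba were higher and Hist2h2be was lower. Hist1h1b, Hist1h1c and Hist4h4 did not pass, and no clustered H2A or H3 gene was among the 16. Single genes among the 16 ran from -1.23 (Hist2h2be) to 1.99 (Hist1h1a). The 51 with such a stretch included 47 that were higher (median 1.64), or 35 of 39 without the Hist1h2a genes (median 1.39). In 7 members no stretch was shared at all: H1f0, H1fx, H2afv, H2afy and Hist1h1a were higher, Hist2h2be was lower and Hist1h1b did not pass (median 0.46). These classes were chosen after the values had been seen.

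**Figure D5:**
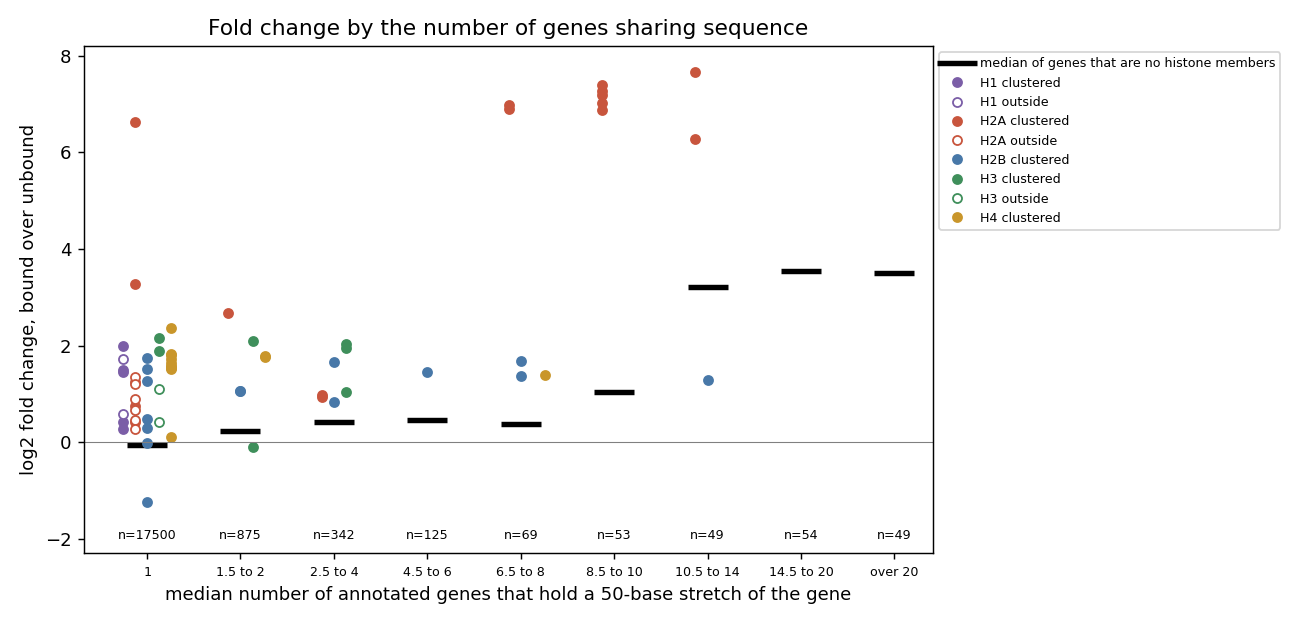
edgeR log2 fold change of bound over unbound (vertical axis) by the median number of annotated genes that hold a 50-base stretch of the gene (horizontal axis, classes). Black bars are medians of genes that are no histone members, with their number below, and rise from 1.04 to 3.21 between the classes 8.5 to 10 and 10.5 to 14. Circles are the 67 histone genes, filled when clustered.

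H2A and H2B genes often lie head to head and are transcribed from a shared stretch of DNA. Among members with a summed count of at least 50 there were 11 head-to-head pairs with starts at most 500 bases apart, each of an H2A and an H2B gene. In 9 pairs both genes were higher, though by different amounts, where 31.0% of all genes tested were higher. In most of these pairs the H2A gene was one of the 10 Hist1h2a genes that passed the filter only through the bound libraries. The count of pairs is therefore a description. Hist1h2ah and Hist1h2bk, 301 bases apart, had log2 differences of 7.66 and 1.67, and Hist1h2ag and Hist1h2bj, 269 bases apart, 7.39 and 1.45. Hist2h2ac and Hist2h2be, 238 bases apart, were the pair with the fall, at log2 0.75 (not past the threshold) and -1.23. In the remaining pair Hist1h2ac was higher (3.28) and Hist1h2bc was level (-0.02).

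Promoter sequence from RefSeq (GRCm38.p6, 250 bases before to 50 after the start) was found for 65 members. On either strand, CCAAT occurred in 45 of 54 clustered genes, in 8 of 11 genes outside the clusters and in 37.9% of all 27025 promoters, and among clustered genes it was rarest in H4, at 3 of 12. TATAAA occurred in 32 of 54 clustered genes, in 1 of 11 genes outside the clusters and in 14.2% of all promoters. The octamer ATTTGCAT, bound by POU factors, occurred in 7 of 17 clustered H2A and 4 of 13 clustered H2B genes, and in no clustered H1, H3 or H4 gene. It occurred in 1 of 11 genes outside the clusters, of type H3, and in 1.75% of all promoters. Head-to-head genes can share part of the promoter sequence, so the H2A and H2B counts are not independent. The 250 bases before the start are shown for Hist1h4d, the clustered gene with the highest level per kilobase in bound RNA, and Hist3h2ba, the H2B gene that rose most, both on the plus strand, at chr13:23581318-23581567 and chr11:58948661-58948910. Capitals mark CCAAT and TATAAA on either strand, and a match is a description of the letters only.
Hist1h4d promoter: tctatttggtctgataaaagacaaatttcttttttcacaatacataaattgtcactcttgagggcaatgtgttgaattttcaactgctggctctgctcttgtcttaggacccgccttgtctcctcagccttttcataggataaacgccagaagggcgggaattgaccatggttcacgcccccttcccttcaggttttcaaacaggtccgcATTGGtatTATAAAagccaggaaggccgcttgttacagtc
Hist3h2ba promoter: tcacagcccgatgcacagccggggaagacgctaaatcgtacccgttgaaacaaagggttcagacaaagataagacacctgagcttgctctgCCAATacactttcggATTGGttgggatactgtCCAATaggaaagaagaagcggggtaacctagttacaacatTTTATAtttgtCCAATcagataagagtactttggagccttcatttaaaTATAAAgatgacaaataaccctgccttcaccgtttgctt

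The annotated 3′ end went along with the size of the difference among clustered genes outside the Hist1h2a family. Of the 31 tested whose longest annotated 3′ UTR is under 500 bases, 28 were higher and none lower, with a median log2 of 1.53; the 25 of them with at least 16 annotated bases after the stop codon gave 24 higher and a median of 1.67. Of the 14 with 500 bases or more, 9 were higher and 1 lower, with a median of 0.77, and Hist2h2be, Hist1h2bc, Hist1h1c, Hist2h3c1 and Hist4h4 were among them. Hist1h2bq and Hist1h2br, in effect measured once, both count among the 14. Genes whose transcripts end at the stem-loop were higher in 14 of 15 cases (median 1.67), genes with a stem-loop and a longer transcript in 15 of 18 (1.51), and genes with no match found in 8 of 12 (1.15). Of those 12, 6 have no annotated 3′ UTR, so a stem-loop could not be found in them, and the other 6 gave 4 higher and 1 lower (median 1.06). Hist2h3b, whose annotation may be too short to hold a stem-loop, is among the latter. Of all genes tested, 31.0% were higher and 30.7% lower. The classes by 3′ UTR and stem-loop were not among the planned comparisons. Whether these classes differ was not tested, and they differ in transcript length as well. Short protein-coding genes were higher in general: of 437 under 1000 bases, 242 were higher (55.4%), with a median log2 of 0.92. Of the clustered genes tested, 42 of 57 are that short, and of those outside the clusters 0 of 10. With a trend on exon length removed, 56 members were called higher, as were 7425 of all 19563 genes tested. The median was then 1.12 for clustered genes without Hist1h2a and 0.18 for all genes.

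By chromosome, 41 of 45 tested genes of the Hist1 cluster (chromosome 13) were higher and 4 did not pass. Over all genes tested, 31.0% were higher and 30.7% lower. The 41 include all 12 tested Hist1h2a genes, of which 10 passed the filter on low counts only through the bound libraries. In the Hist2 cluster (chromosome 3), 6 of 9 were higher and 1 was lower, with a median log2 of 0.98. Both Hist3 genes (chromosome 11) were higher, and the single Hist4 gene (chromosome 6) did not pass.

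Genes that handle histone mRNA moved in both directions, in shares near those of all genes. Of 23 genes for histone mRNA 3′ end formation and decay, 8 were higher (34.8%, against 31.0% of all genes tested) and 8 lower (34.8%, against 30.7%), with a median log2 of 0.16. Slbp, for the protein that binds the stem-loop, was higher (log2 1.23 ± 0.13, edgeR adjusted p = 8.76e-06). Lsm11, for a protein of the U7 particle that guides the cut, was lower (log2 -1.64 ± 0.14, edgeR adjusted p = 2.20e-06). Npat, for the activator of clustered histone transcription, was lower (-1.01 ± 0.14, edgeR adjusted p = 7.20e-05), and so was Eri1, for an exonuclease that trims histone mRNA (-1.15 ± 0.12, edgeR adjusted p = 9.15e-06). Of the 8 that rose, 5 encode Sm proteins (Snrpb, Snrpd3, Snrpe, Snrpf and Snrpg), which also serve splicing.

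Of 30 genes for histone chaperones and remodellers, 7 were higher (23.3%, against 31.0% of all genes tested) and 14 lower (46.7%, against 30.7%), with a median log2 of -0.28 against -0.01 for all genes. Daxx, for an H3.3 chaperone, was higher (log2 0.94 ± 0.10, edgeR adjusted p = 9.21e-06), and its partner Atrx was lower (-0.62 ± 0.10, edgeR adjusted p = 0.000296). Hira, for the chaperone that places H3.3 at active genes, was lower (-0.40 ± 0.10, edgeR adjusted p = 0.00418). Of the genes for H2A.Z exchange, Vps72 was higher (1.17 ± 0.11, edgeR adjusted p = 3.90e-06), whereas Ep400 (-1.12), Ino80 (-0.65), Srcap (-0.48) and Anp32e (-0.41) were lower, with edgeR adjusted p from 2.30e-06 to 0.00101. The largest rise of the list was that of Nap1l5, of the NAP1 family of histone chaperones (2.36 ± 0.07, edgeR adjusted p = 1.15e-09).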

How the data were processed

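Values are raw read counts per gene, deposited by the authors as one table of 7 libraries; per the submitters' processing notes, STAR 2.5.3a, HTSeq and the mm10 build were used, and the handling of reads with several matches was not given in the sources used here. Groups came from the labels. Whether counting used strand was not given. Some antisense genes that overlap members had near-equal counts (4930558J22Rik with Hist1h4b, Gm15444 with Hist2h2ab) and others did not (Gm5577 with H1fx, Gm20628 with Hist2h3b), so values of overlapping genes are uncertain. Counts were tested with edgeR 4.0.16 (R 4.3.3; filterByExpr, TMM scaling, robust quasi-likelihood fit, all 7 libraries), with Benjamini-Hochberg adjustment over 19563 genes and a threshold of 0.05. CPM values use TMM-scaled totals; per-kilobase levels divide them by merged exon length in GENCODE M21, which also gave symbols, coordinates and transcripts. Promoters are from RefSeq, matched by symbol or synonym. On simulated counts the fit was checked for recovery of known changes. DESeq2 1.42.0 was an alternative.

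Members and gene lists were chosen with earlier results of these data known. Genes named with full values were, per clustered type, the 3 with the highest mean CPM, the 2 largest rises and 2 largest falls past the threshold, every clustered member called lower, and every member outside the clusters with a summed count of at least 50. Others were named after their values were seen (Hist1h1b, Hist1h2ac, Hist1h2ak, Hist1h2ba, Hist1h2bl, Hist1h2bq, Hist1h2br, Hist2h2ab, Hist2h2ac, Hist2h4 and Hist4h4). Lists not described in the report gave: astrocyte 6 of 7 lower, oligodendrocyte 6 of 6 lower, oligodendrocyte precursor 4 of 4 lower, endothelial 3 of 5 lower, meningeal 5 of 5 lower, neurogenesis 1 of 6 higher and 1 lower.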

Additional observations from a re-analysis of the deposited data

Results flagged for a closer look

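Among the 67 members examined for a library far from the other 3 of the unbound group, 2 had one, both unbound replicate 2. By chance alone about 1 in 20 of the genes examined would be flagged, so 2 of 67 is no more than chance gives. Hist1h2ac was at 0.304 CPM in unbound replicate 2 and at 0.815 to 0.852 CPM in the other unbound libraries. Hist4h4 was at 0.0701 CPM in unbound replicate 2 and at 0.264 to 0.282 CPM in the others, which is 3 raw counts against 9 to 12.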

How the results depend on the processing

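Each of the 67 log2 fold changes was recomputed under 16 alternatives, giving 1072 values. Of these, 1052 kept their side of the threshold, 16 lost the call, 3 gained it and 1 reversed. In all alternatives, 57 members kept their side of the threshold. Values not past it could change sign: Hist1h2ba ran from log2 -0.12 to 0.72, Hist4h4 from -0.22 to 0.56 and Hist2h3c1 from -0.24 to 0.33. Scaling by library totals alone put the all-gene median log2 at 0.43 (-0.01 with TMM). It called 62 members higher, and 9284 of all 19563 genes tested (6072 with TMM). The log2 ratio of summed CPM was then 1.76 for clustered genes (1.33 with TMM) and 1.19 outside the clusters (0.75 with TMM). Under the same scaling Hist1h2bc, log2 -0.02 with TMM, reversed to 0.41 (edgeR adjusted p = 0.00941). With a trend on exon length removed, 2 members were lower in place of 1, Hist1h2bc being added (log2 -0.29, edgeR adjusted p = 0.0493). Leaving out each library in turn gave 56 to 59 members higher and 1 lower, 46 to 49 clustered members and 9 to 10 outside the clusters higher, and log2 ratios of summed CPM from 1.29 to 1.39 for clustered genes and from 0.73 to 0.78 outside. Over all genes tested, leaving out a library gave 5598 to 6071 genes higher. UBS or UBGS libraries alone as unbound gave 54 and 57 members higher, and 5103 of 19768 and 5641 of 19979 genes tested. No paired analysis was possible because the labels give no number that ties a bound library to an unbound one. Depth limits Hist1h1b, Hist4h4 and the unbound values of the 10 Hist1h2a genes with the shared stretch.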

Other observations

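Histone-related genes outside the naming rule gave values as follows. Cenpa, for the centromeric H3 variant, was at 1.35 ± 0.370 CPM (SD, n = 4) in unbound and 4.75 ± 1.97 CPM (n = 3) in bound RNA (log2 1.80 ± 0.33, edgeR adjusted p = 0.000638). The processed pseudogene H3f3c, a near copy of H3f3a, was at 41.6 ± 4.97 CPM unbound and 57.7 ± 12.9 CPM bound (log2 0.47 ± 0.15, edgeR adjusted p = 0.0162). Hist3h2bb-ps, a processed pseudogene of the H2B type, was at 1.63 ± 0.435 CPM unbound and 5.53 ± 0.869 CPM bound (log2 1.76 ± 0.25, edgeR adjusted p = 0.000122).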
